A study of Rattus norvegicus with 2 samples.

Results

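The genes described are 10 transcription regulators of smooth muscle and mesenchymal cells: Myocd, Srf, Mef2a, Mef2c, Gata6, Tcf21, Yap1, Wwtr1, Prrx1 and Twist1. They were chosen by symbol, each was listed once, and together they were 10 of the 32623 genes in the count matrix. The data are droplet-based single-cell RNA counts (10x Genomics) of rat carotid arteries, held in 2 libraries with 1 for each group. The control group held the uninjured left arteries, and the case group the right arteries of the same animals, which had been narrowed by balloon injury 28 days earlier. Each library pooled the arteries of 2 male SD rats, aged 12 weeks by the labels and 8 weeks at the start of the experiment by the methods. No allele or drug distinguished the groups, and both arteries came from animals that had undergone the operation, so the control group was the other side of an injured animal and not an untouched rat.

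Since each group is a single library, differences between the groups have no replicate check. Levels are given as CPM, the UMIs (distinct RNA molecules counted) of a gene per 1000000 UMIs of all cells of a class. Values in parentheses are exact 95% intervals, Poisson for levels and conditional binomial for log2 ratios, and they cover counting error only, not the spread between rats or libraries.

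Contractile smooth muscle genes are switched on by serum response factor (Srf), which binds a short element called the CArG box, together with its muscle coactivator myocardin (Myocd). The MEF2 factors Mef2a and Mef2c bind an A/T-rich site in muscle genes, and Gata6 binds GATA elements and is known in vascular smooth muscle as a factor of the quiescent state. Yap1 and Wwtr1 (which encodes TAZ) are coactivators held in the cytoplasm by the Hippo kinases, and they act on DNA through TEAD factors. The bHLH factors Tcf21 and Twist1 and the homeobox factor Prrx1 are known for mesenchymal progenitors and fibroblasts. Vascular smooth muscle cells (VSMCs) can lose the contractile phenotype after injury, which is the question the comparison of both arteries bears on.

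A total of 2742 of 3321 control barcodes and 4930 of 5656 case barcodes passed the cell filter, with 23974210 and 27054902 UMIs. Cells were put into classes by the share of their UMIs from marker genes, none of which is among the 10 regulators. VSMC-like cells numbered 1537 in the control and 2606 in the case group, fibroblast-like cells 753 and 1492, endothelial-like cells 56 and 252, macrophage-like cells 35 and 99, and Schwann-like cells 19 and 48. A further 194 control and 127 case cells held both VSMC and fibroblast markers. The gate itself fixed the level of its markers, at 23714 CPM of VSMC markers in control VSMC-like and 629 in control fibroblast-like cells, so these values do not check the labels. Among the 10 genes with the largest fold in a class, 1 was a gate marker in VSMC-like cells (Tagln), 0 in fibroblast-like cells, 4 in endothelial-like, 3 in macrophage-like and 3 in Schwann-like cells, and 0 were markers of another class. Genes outside the gate led the fibroblast-like class, with Thbs4, Apod and Mmp3 among them. The Schwann-like class was soft: 9 control and 29 case barcodes, in the class or outside it, lay within 1.5-fold of its gate. The class itself held 19 and 48 cells. Shallow barcodes stood apart in the control group, where 27.5% of kept barcodes held under 2000 UMIs against 6.49% in the case group. The control cells with both sets of markers were among the shallow ones, with a median of 1174 UMIs against 8964 in the case group. Case VSMC-like and fibroblast-like cells had lower medians than the latter, 5415 and 5110.5 UMIs. The part of doublets (barcodes holding more than 1 cell) in the levels of cells with both sets of markers was not tested. The libraries shared 21 barcode sequences, 9 of them among kept cells. Cells of both groups also fell into different clusters of the same class: of the clusters named VSMC-like, the largest held 48 control cells among 1399 and another 25 among 538, while 2 others held 317 among 376 and 315 among 323, the last with a median of 487 UMIs. Of the larger fibroblast-like clusters, 1 held 194 control cells among 1048 and the other 511 among 1138, and the endothelial-like clusters held 10 among 167 and 54 among 215.

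RefSeq promoter sequences (build GRCr8, 250 bases before to 50 bases after the start site) matched 8 of the 10 regulators, Myocd and Mef2c being the other two. The 3 shown here hold the element that Srf or the MEF2 factors read, with those elements in capitals. Srf lies on chromosome 9 at chr9:21923826-21924125 on the plus strand, Mef2a on chromosome 1 at chr1:130392113-130392412 on the minus strand, and Prrx1 on chromosome 13 at chr13:78204024-78204323 on the minus strand. The counts themselves had been made on build Rnor_6.0, and no coordinate was carried between the builds.
Srf: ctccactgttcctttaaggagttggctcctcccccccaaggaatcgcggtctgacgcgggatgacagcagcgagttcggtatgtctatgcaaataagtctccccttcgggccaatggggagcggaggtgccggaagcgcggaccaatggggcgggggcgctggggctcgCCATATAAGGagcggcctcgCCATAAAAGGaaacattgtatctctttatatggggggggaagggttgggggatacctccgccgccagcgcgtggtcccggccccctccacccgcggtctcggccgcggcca
Mef2a: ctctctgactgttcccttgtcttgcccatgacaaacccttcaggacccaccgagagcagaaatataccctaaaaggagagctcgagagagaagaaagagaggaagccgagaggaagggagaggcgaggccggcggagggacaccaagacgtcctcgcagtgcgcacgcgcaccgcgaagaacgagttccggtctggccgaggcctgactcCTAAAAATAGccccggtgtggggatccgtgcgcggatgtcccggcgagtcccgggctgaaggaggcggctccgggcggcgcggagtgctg
Prrx1: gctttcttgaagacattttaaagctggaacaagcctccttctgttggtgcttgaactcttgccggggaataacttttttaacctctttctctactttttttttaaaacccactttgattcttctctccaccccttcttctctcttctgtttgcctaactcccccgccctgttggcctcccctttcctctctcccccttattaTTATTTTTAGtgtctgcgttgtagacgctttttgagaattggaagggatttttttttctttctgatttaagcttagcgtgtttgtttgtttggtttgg

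The Srf promoter held 2 CArG boxes, CCATATAAGG from 81 to 72 bases before the start site and CCATAAAAGG from 61 to 52 bases before it. None of the other 7 promoters held one, and 1.64% of all 33469 promoters of this length did. A MEF2 site was found in Mef2a (CTAAAAATAG, 40 to 31 bases before the start) and in Prrx1 (TTATTTTTAG, 48 to 39 bases before it), and in 3.29% of all promoters. The 18 promoters matched for contractile target genes held 0 CArG boxes and 0 MEF2 sites in this window. Of the other motifs searched on both strands, GATAA occurred 2 times in Tcf21 and in no other matched regulator, against 26.5% of all promoters. The TEAD element CATTCC occurred in Yap1 alone among the 8, against 14.2% of all promoters, and so did the E-box CANNTG, against 72.1%. Each match is a stretch of letters in the reference, not a measured binding site. Base composition set the promoters apart as well: GC content was 41.0% with 5 CpG in Prrx1, 53.7% with 7 CpG in Tcf21, and 63.0% to 71.3% with 12 to 47 CpG in the other 6.

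Myocd was a VSMC gene in both groups. It stood at 89.8 CPM (84.8 to 95.02) in control VSMC-like cells and 85.1 (80.4 to 89.9) in case VSMC-like cells. Fibroblast-like cells held 3.81 (2.60 to 5.37) and 4.53 (3.19 to 6.25) CPM. The endothelial-like, macrophage-like and Schwann-like classes together held 0 UMIs among control cells, and 3, 1 and 1 among case cells. The level of fibroblast-like cells was 4.24% and 5.33% of that of VSMC-like cells, beside 2.65% and 3.03% for the VSMC markers of the gate, which fibroblasts should lack. The gate limits these marker values, since cells rich in both sets of markers form a class of their own. The part of free VSMC RNA in the fibroblast value was not tested. Cells with both sets of markers stood between the classes, at 36.9 (24.7 to 52.9) and 38.2 (27.7 to 51.5) CPM. At a common depth of 1000 UMIs per cell, 8.43% of control and 7.69% of case VSMC-like cells held a Myocd UMI, against 0.541% and 0.269% of fibroblast-like cells. These shares leave out cells under 1000 UMIs, which keeps 1151 of 1537 control and 2587 of 2606 case VSMC-like cells. Without thinning, 41.4% of control VSMC-like cells (median depth 9573 UMIs) and 33.4% of case cells (median 5415) held one.

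Srf, unlike its coactivator, was found in every class. VSMC-like cells held 91.5 CPM (86.5 to 96.8) and 85.9 (81.2 to 90.7), and fibroblast-like cells 61.5 (56.3 to 67.0) and 78.1 (72.2 to 84.4). Endothelial-like cells held 63.3 (41.7 to 92.1) and 108 (90.1 to 129), and macrophage-like cells 57.5 (32.9 to 93.3) and 74.9 (53.2 to 102). The Schwann-like values, 106 (51.0 to 196) and 42.4 (15.6 to 92.2), came from 10 and 6 UMIs. VSMC-like cells exceeded fibroblast-like cells 1.49-fold in the control group, beyond counting error. In the case group the ratio was 1.10, with a log2 interval of -0.0020 to 0.28, and endothelial-like cells now stood above VSMC-like cells by 1.26-fold. The order of the remaining neighbours lay within counting error.

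The MEF2 factors divided in the same way. Mef2a was found in all 5 classes, from 106 CPM in control Schwann-like to 388 in case endothelial-like cells, with 238 (230 to 246) and 300.2 (291 to 309) in VSMC-like and 175 (166 to 184) and 213 (203 to 223) in fibroblast-like cells. Mef2c was high in VSMC-like cells, at 130.1 (124 to 136) and 105 (99.6 to 110.2), and low in fibroblast-like cells, at 9.99 (7.97 to 12.4) and 10.4 (8.32 to 12.9). The ratio of VSMC-like over fibroblast-like cells was 13.03-fold in the control and 10.1-fold in the case group for Mef2c, and 1.36-fold and 1.41-fold for Mef2a. Endothelial-like cells came next for Mef2c, with 35.2 (19.7 to 58.0) and 62.4 (48.8 to 78.5) CPM, and macrophage-like cells held 32.3 (14.8 to 61.4) and 19.2 (9.21 to 35.3).

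Gata6 marked VSMCs and endothelial cells and, at a lower level, fibroblasts. VSMC-like cells held 164 CPM (157 to 171) and 166 (160.0 to 173), and endothelial-like cells 181 (143 to 226) and 136 (116 to 159). Fibroblast-like cells held 72.1 (66.4 to 78.0) and 68.8 (63.3 to 74.8). VSMC-like cells thus exceeded fibroblast-like cells 2.28-fold and 2.42-fold. Macrophage-like and Schwann-like cells were nearly empty of Gata6: 2 UMIs were counted in case macrophage-like cells and 0 in the other 3 pools, where a count of 0 allows up to 10.8 CPM in control macrophage-like, 31.9 in control Schwann-like and 21.2 in case Schwann-like cells. Tcf21, known for adventitial fibroblasts and for smooth muscle cells that move towards a fibroblast-like state, was found in fibroblast-like cells at 4.99 CPM (3.60 to 6.75) and 3.31 (2.18 to 4.81), from 42 and 27 UMIs. Cells with both sets of markers held 5 UMIs in the control library and 0 in the other. VSMC-like cells held 0 Tcf21 UMIs in both groups, which allows up to 0.224 CPM in the control and 0.203 in the case group. The other 3 classes also held 0, which allows from 2.60 CPM in case endothelial-like to 31.9 in control Schwann-like cells. All but the lowest of these bounds lie above the fibroblast-like level, so absence is not shown there.

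The Hippo coactivators were found in VSMCs, fibroblasts and endothelial cells, and neither had a UMI in macrophage-like cells. Wwtr1 stood at 38.5 CPM (35.2 to 41.9) and 30.0 (27.3 to 32.96) in VSMC-like, 46.9 (42.3 to 51.7) and 29.6 (26.0 to 33.6) in fibroblast-like, and 53.9 (34.2 to 80.9) and 108 (90.1 to 129) in endothelial-like cells. Schwann-like cells held 53.2 (17.3 to 124) and 42.4 (15.6 to 92.2) CPM of Wwtr1, from 5 and 6 UMIs. In macrophage-like cells 0 Wwtr1 UMIs were counted in either group, which allows up to 10.8 and 5.76 CPM. In the case group endothelial-like cells stood above all other classes, and VSMC-like and fibroblast-like cells differed by a log2 ratio of 0.02 (-0.21 to 0.25). Yap1 was counted from few UMIs, 166 in all control and 191 in all case cells. Its level was 6.73 (5.42 to 8.28) and 7.93 (6.56 to 9.51) in VSMC-like and 6.78 (5.13 to 8.78) and 6.12 (4.55 to 8.07) in fibroblast-like cells, and no pair of neighbouring classes differed beyond counting error. The 0 Yap1 UMIs of macrophage-like cells allow up to 10.8 and 5.76 CPM, near these levels, so its absence there is not shown.

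Prrx1 and Twist1 were highest in fibroblasts, and VSMCs also carried them. Prrx1 stood at 141 CPM (133 to 149) and 111 (104 to 119) in fibroblast-like and 62.9 (58.7 to 67.3) and 68.7 (64.6 to 73.1) in VSMC-like cells. Twist1 stood at 273 (262 to 284) and 292 (280.4 to 304) in fibroblast-like and 216 (208 to 224) and 171 (165 to 178) in VSMC-like cells. The VSMC-like level was 44.6% and 61.7% of the fibroblast-like level for Prrx1, and 79.3% and 58.6% for Twist1. The fibroblast markers of the gate reached 2.15% and 2.30% in the same cells, a value that the gate limits, since cells rich in both sets of markers form a class of their own. The part of fibroblast RNA was not tested. In endothelial-like cells Prrx1 held 4.69 and 3.46 CPM and Twist1 23.5 and 13.9, from 2, 4, 10 and 16 UMIs. Cells with both sets of markers held 80.1 (61.5 to 102) and 85.3 (69.1 to 104) CPM of Prrx1, between the VSMC-like and fibroblast-like levels, and 304 (267 to 345) and 232 (205 to 262) CPM of Twist1.

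**Figure D1:**
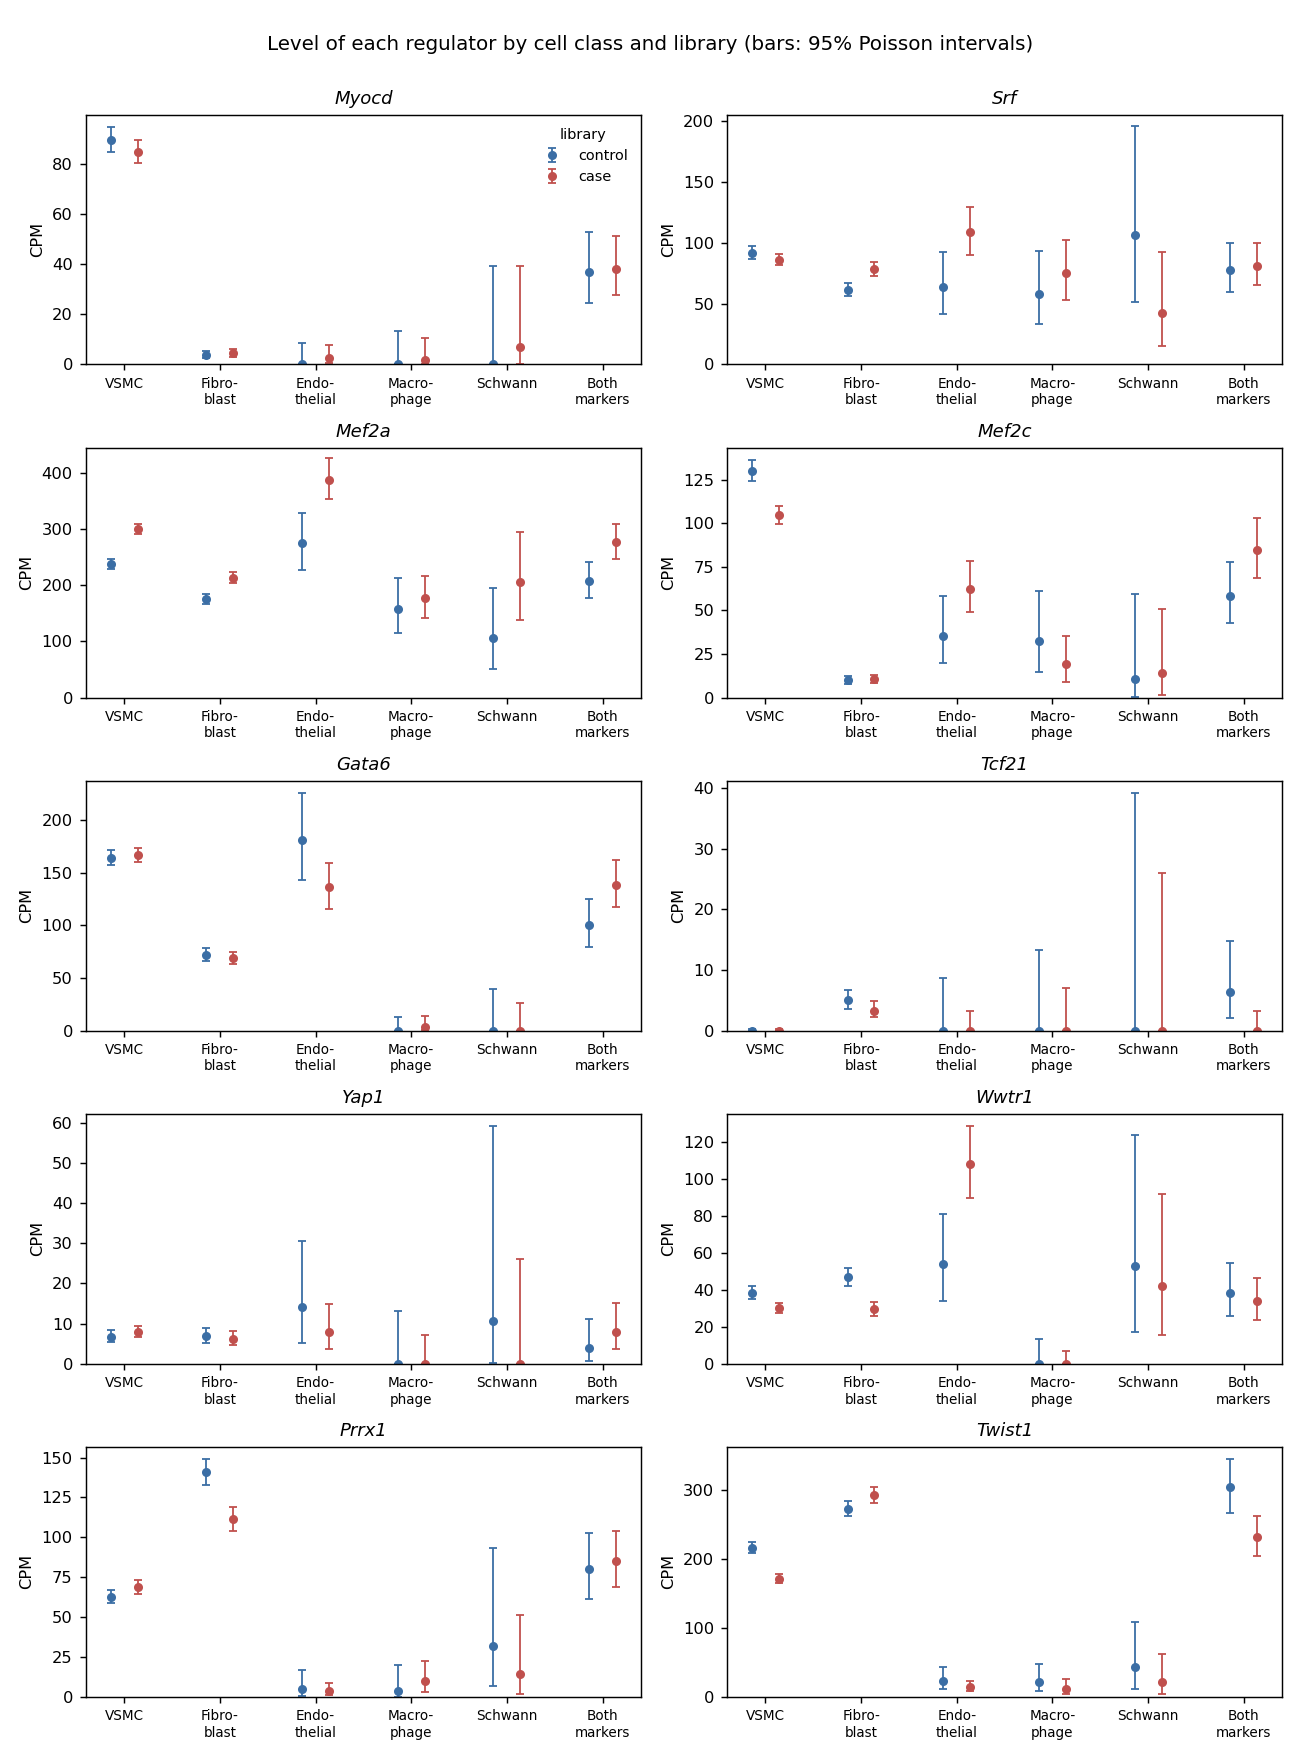
Level of each regulator in CPM (vertical axes from 0, each panel its own scale) in 5 cell classes and in cells with both VSMC and fibroblast markers, for the control (blue) and case (red) libraries, with 95% Poisson intervals. Myocd and Mef2c peak in VSMC-like cells, Prrx1 in fibroblast-like cells, Tcf21 is at 0 in VSMC-like cells, and Srf and Mef2a are above 0 in every class.

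Between the case and the control group, no regulator of VSMC-like cells passed a 1.5-fold change, taken over a class whose clusters differ in their share of control cells as given above. A gene was counted when both libraries together held at least 100 UMIs in the class, and called when its level differed at least 1.5-fold. Of the 9 regulators counted in VSMC-like cells, 0 were called higher and 0 lower, whereas 5.33% of the 8946 counted genes were called higher and 15.4% lower. The median log2 change, case over control, was -0.08 for the regulators and -0.14 for all counted genes. On the log2 scale Mef2a gave 0.34 (0.27 to 0.40), Twist1 -0.34 (-0.41 to -0.26), Wwtr1 -0.36 (-0.54 to -0.17) and Mef2c -0.31 (-0.41 to -0.21), each beyond counting error and within the 1.5-fold limit. The intervals of the other 5 included no change: Myocd at -0.08 (-0.19 to 0.04), Srf at -0.09 (-0.21 to 0.02), Gata6 at 0.02 (-0.06 to 0.10), Prrx1 at 0.13 (-0.0044 to 0.26) and Yap1 at 0.24 (-0.17 to 0.65). Under TMM scaling, which shifts every change in these cells by 0.14, Myocd and Srf turned to 0.061 and 0.047. With every cell weighted equally Myocd gave -0.26, outside its interval, and at 1000 UMIs per cell Yap1 turned to -0.36. Without barcodes under 2000 UMIs, the largest move among the 9 was 0.062, for Yap1.

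In fibroblast-like cells 8 regulators were counted and only Wwtr1 was called, as lower, beside 6.63% of the 7523 counted genes called higher and 14.4% called lower. Wwtr1 changed by -0.66 (-0.90 to -0.43). The change was smaller with every cell weighted equally, at -0.54, and at 1000 UMIs per cell it was -0.17, where 24 control and 43 case cells held a Wwtr1 UMI. Prrx1 gave -0.34 (-0.47 to -0.21), Srf 0.35 (0.18 to 0.52) and Mef2a 0.29 (0.19 to 0.39), all short of the 1.5-fold limit, and at 1000 UMIs per cell Srf turned to -0.038. Twist1 changed by 0.10 (0.0148 to 0.18), Mef2c by 0.06 (-0.39 to 0.51), Gata6 by -0.07 (-0.23 to 0.10) and Yap1 by -0.15 (-0.72 to 0.43). With classes taken from Leiden clusters, Mef2c gave 0.63, outside its interval and past the 1.5-fold limit. The median over the 8 was -0.0032, against -0.09 over all counted genes. Tcf21 gave -0.59 (-1.35 to 0.14) and Myocd 0.25 (-0.47 to 0.98), each from under 100 UMIs.

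In endothelial-like cells 4 regulators were counted, and 2 were called higher and 0 lower. In these cells 21.2% of the 2138 counted genes were called higher and 20.9% lower, so a call was common. The minimum of UMIs was taken over both libraries, and the case pool was the larger, with 1154654 against 426419 UMIs. A gene high in case cells thus passed the minimum more readily. Wwtr1 was counted from 23 control and 125 case UMIs, and Srf from 27 and 125. With no minimum of UMIs 8 regulators were counted, 3 higher and 2 lower, with a median log2 change of 0.045. Wwtr1 stood at 53.9 CPM in control and 108 in case cells, with a log2 ratio of 1.01 (0.36 to 1.71), and Srf at 63.3 and 108, with a ratio of 0.77 (0.16 to 1.43). Mef2a gave 0.50 (0.20 to 0.81) and Gata6 -0.41 (-0.81 to 0.0034). Mef2c, below the minimum with 15 and 72 UMIs, changed by 0.83 (0.0097 to 1.74), and by 0.052 at 1000 UMIs per cell. Some marker sets of other cells were lower in the case group and some were not. VSMC markers stood at 910 CPM in control and 726 in case cells, and fibroblast markers at 229.8 and 77.9. Markers of small-vessel mural cells went from 274 to 80.5, with 2 and 3 of 4 mural markers detected. Control VSMC-like and fibroblast-like cells held 220 and 252 CPM of these mural markers. Perineurial markers rose from 141 to 202 CPM, with 2 of 4 detected in each group, and Schwann markers stood at 2.35 and 2.60. Macrophage markers went from 21.1 to 9.53 CPM. Adipocyte markers went from 9.38 to 3.46 (4 UMIs in each group) and erythroid markers from 11.7 to 7.79 (5 and 9 UMIs). Skeletal muscle markers went from 0 to 1.73 (2 case UMIs). The part of RNA from other cells in these changes was not tested. With every cell weighted equally the Srf change fell by 0.218, short of the 1.5-fold limit, and 1 regulator was called higher. At 1000 UMIs per cell the Srf change turned to -0.39, with 7 control and 21 case cells holding a UMI. That of Wwtr1 turned to 2.29, with 1 control and 22 case cells holding one. Among cells with both sets of markers, 6 regulators were counted and 0 were called, with Mef2c at 0.53 (0.0075 to 1.07), Gata6 at 0.47 (0.07 to 0.88), Mef2a at 0.42 (0.14 to 0.70) and Twist1 at -0.39 (-0.65 to -0.13). Median depth differed between the groups here, as given above, and its part was not tested. In this class 10.5% of 2432 counted genes were called higher and 16.1% lower.

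**Figure D2:**
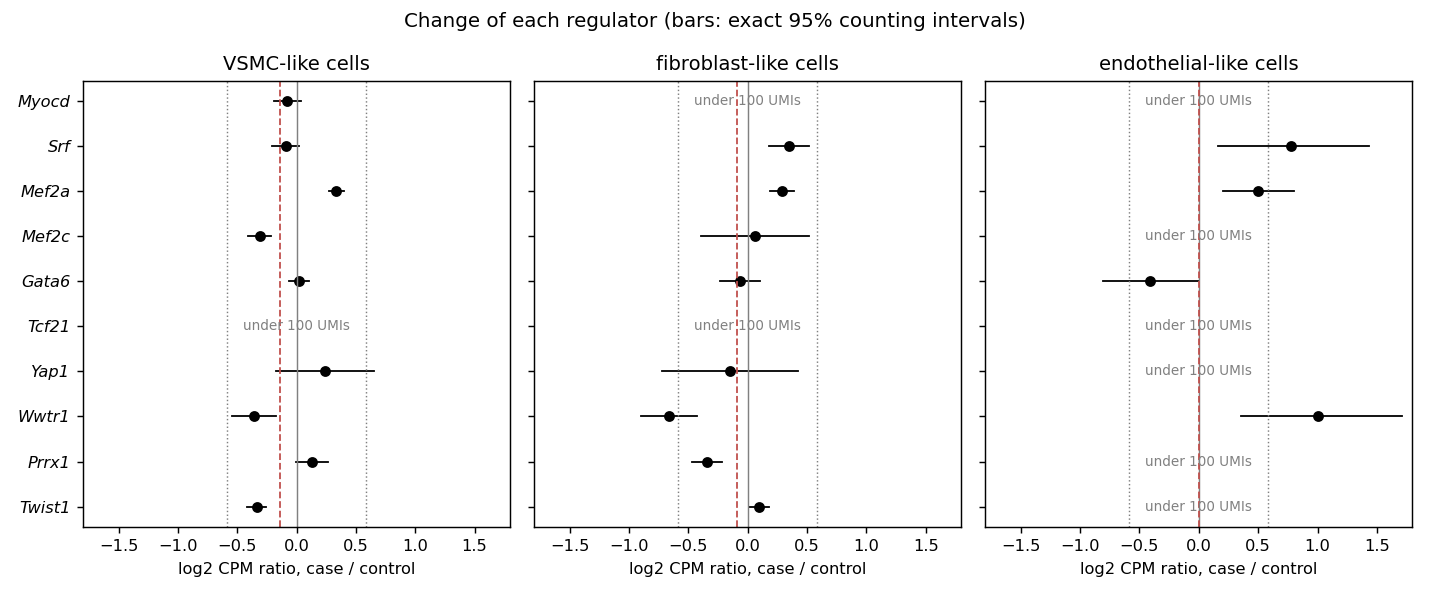
Log2 ratio of CPM, case over control, of each regulator in 3 cell classes, with exact 95% counting intervals, the median of all counted genes (red dashes) and the 1.5-fold limits (grey dots). Wwtr1 lies beyond the lower limit in fibroblast-like cells (-0.66) and beyond the upper limit in endothelial-like cells (1.01), while all 9 counted regulators of VSMC-like cells lie within the limits. The Wwtr1 value of endothelial-like cells rests on 23 control and 125 case UMIs.

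Within a class, some regulators differed between states of the cells, and each library was read on its own. These states were set by markers or marker shares after the data had been seen. The VSMC-like and fibroblast-like states were taken in cells of at least 2000 UMIs. The endothelial-like states took all cells of the class, with no limit on depth. VSMC-like cells were divided into 3 equal parts by the share of UMIs from Acta2, Tagln, Myh11, Cnn1 and Myl9. Srf stood at 104 CPM in the highest and 81.8 in the lowest part of the control group, a log2 ratio of 0.35 (0.14 to 0.56), and at 97.95 and 72.4 in the case group, a ratio of 0.44 (0.23 to 0.64). Mef2c gave 0.33 (0.15 to 0.51) and 0.35 (0.16 to 0.54). Twist1 was lower in the highest part, by -0.14 (-0.27 to -0.00097) and -0.24 (-0.39 to -0.09). Gata6 gave -0.34 (-0.50 to -0.18) in the control group and -0.09 (-0.23 to 0.06) in the case group. The intervals of Mef2a, Wwtr1, Prrx1 and Yap1 included 0 in both libraries. Myocd itself did not follow the markers beyond counting error, with -0.15 (-0.37 to 0.07) in the control and 0.15 (-0.05 to 0.36) in the case group. None of these ratios reached 1.5-fold, while 6.22% and 6.59% of counted genes were called higher in the highest part and 7.39% and 7.91% lower. Median depths were 12894 and 10763 UMIs in the highest and lowest parts of the control group and 5980 and 4881 in the case group.

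VSMC-like cells with a Notch1 UMI numbered 393 in the control and 689 in the case group, and 0 regulators passed 1.5-fold between them and the rest, beside 6.04% and 5.33% of counted genes called higher and 2.44% and 2.64% lower. Mef2c was lower in them than in the other VSMC-like cells, by -0.34 (-0.49 to -0.20) and -0.23 (-0.40 to -0.07), and so was Twist1, by -0.19 (-0.29 to -0.08) and -0.26 (-0.39 to -0.14). Gata6 was higher, by 0.21 (0.08 to 0.33) and 0.14 (0.0146 to 0.26). The cells with Notch1 were also deeper, with medians of 14811 against 11541 UMIs in the control and 6084 against 5342 in the case group, and the part of depth was not tested. Cells with at least 5 Spp1 UMIs per 10000 likewise had no regulator with at least 100 UMIs past 1.5-fold in either group, while 1.28% and 1.67% of counted genes were called higher and 1.56% and 1.84% lower. Myocd gave -0.24 (-0.47 to -0.0195) in the control and 0.13 (-0.08 to 0.33) in the case group.

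Gata6 divided the fibroblasts. In cells with at least 20 Gfpt2 UMIs per 10000 (209 control and 459 case cells), Gata6 stood at 42.8 CPM in the control and 42.4 in the case group, against 89.4 and 86.7 in the other fibroblast-like cells. The log2 ratios were -1.06 (-1.35 to -0.78) and -1.03 (-1.33 to -0.75). Calls were common between these states, with 21.8% and 17.5% of counted genes lower and 14.6% and 19.2% higher, and the Gfpt2-high cells were deeper, with medians of 15133 against 10104 UMIs in the control and 6363 against 4715 in the case group. Twist1 was lower in the same cells, by -0.25 (-0.37 to -0.12) and -0.76 (-0.89 to -0.63), and Prrx1 higher, by 0.31 (0.14 to 0.48) and 0.27 (0.07 to 0.46). Srf was lower there as well, by -0.39 (-0.67 to -0.12) and -0.36 (-0.61 to -0.12), and so was Mef2a, by -0.24 (-0.40 to -0.08) and -0.41 (-0.56 to -0.26). Within each of the Gfpt2 states the Gata6 levels of case and control cells did not differ beyond counting error, with log2 changes of -0.0138 (-0.37 to 0.34) in Gfpt2-high and -0.05 (-0.24 to 0.15) in the other cells. Twist1 did: it was lower in the case group among Gfpt2-high cells, by -0.25 (-0.41 to -0.10), and higher among the others, by 0.26 (0.16 to 0.36). The lower Wwtr1 of case cells was seen in both states, at -0.86 (-1.27 to -0.46) and -0.56 (-0.86 to -0.26), and Prrx1 gave -0.37 (-0.57 to -0.18) and -0.33 (-0.50 to -0.16).

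The Pi16 and Postn states gave a further contrast for Gata6. Fibroblast-like cells with at least 5 Pi16 UMIs per 10000 numbered 487 in the control and 519 in the case group, beside 220 and 899 under that limit. No regulator with at least 100 UMIs passed 1.5-fold between them, and 3.91% and 4.36% of counted genes were called higher and 6.35% and 7.21% lower. Gata6 was lower in them in the control group, by -0.50 (-0.74 to -0.26), and higher in the case group, by 0.54 (0.29 to 0.78). Case over control, Gata6 gave 0.44 (0.21 to 0.68) in cells at or above the Pi16 limit and -0.60 (-0.85 to -0.35) in cells under it. Wwtr1 gave -0.96 (-1.34 to -0.59) and -0.39 (-0.75 to -0.03) in the same cells. The share of all genes changed between the groups within these states was not computed. Mef2c, from 84 and 83 UMIs, was lower in Pi16-positive cells of both libraries, by -0.88 (-1.54 to -0.22) and -0.84 (-1.63 to -0.11). Myocd gave -1.44 (-2.57 to -0.33) in the control group, from 14 and 17 UMIs, and -0.71 (-1.93 to 0.38) in the case group, from 10 and 27. The part of VSMC RNA in these values was not tested. Cells with at least 5 Postn UMIs per 10000 numbered 9 in the control group, too few to compare (20.6% of counted genes were called higher and 32.8% lower), and 138 in the case group, where 8.97% were called higher and 9.44% lower. In the latter Gata6 stood at 25.5 CPM against 75.5 in the other fibroblast-like cells, a log2 ratio of -1.57 (-2.22 to -0.98). Prrx1 did not differ between them beyond counting error, at 0.05 (-0.26 to 0.34).

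In the case group, endothelial cells showed the widest range of Gata6 among the states compared. Cells with a UMI of Plvap or Emcn, genes known for capillary and venous endothelium, numbered 12 of 56 in the control and 104 of 252 in the case group. In the case group Gata6 stood at 40.6 CPM in these cells, from 19 UMIs, and at 201 CPM in the cells without either gene, from 138 UMIs, a log2 ratio of -2.30 (-3.08 to -1.61). In the control group the values were 149 and 189 CPM, a ratio of -0.34 (-1.33 to 0.53) from 13 and 64 UMIs. Case over control, Gata6 gave -1.87 (-2.97 to -0.73) in cells with Plvap or Emcn, from 13 and 19 UMIs. Srf went the other way. It stood at 160.4 CPM against 38.3 in the control group, from only 14 and 13 UMIs, a ratio of 2.07 (0.87 to 3.27). The case group gave 154 against 77.1, from 72 and 53 UMIs, a ratio of 1.00 (0.47 to 1.54). In the case group Wwtr1 was higher in cells with Plvap or Emcn as well, by 0.72 (0.19 to 1.25), and Mef2a by 0.48 (0.20 to 0.75). Among cells with neither gene, Srf was higher in the case than in the control group by 1.01 (0.11 to 2.01) and Wwtr1 by 1.06 (0.20 to 2.01), from 13 and 14 control UMIs. Gata6 changed there by 0.09 (-0.35 to 0.54). Among cells with Plvap or Emcn, case over control, Srf gave -0.06 (-0.90 to 0.88) and Wwtr1 0.45 (-0.56 to 1.64). The control values rest on 12 and 44 cells. Calls between these 2 states were frequent, with 23.7% of counted genes higher and 25.1% lower in the control group and 31.0% and 18.4% in the case group.

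**Figure D3:**
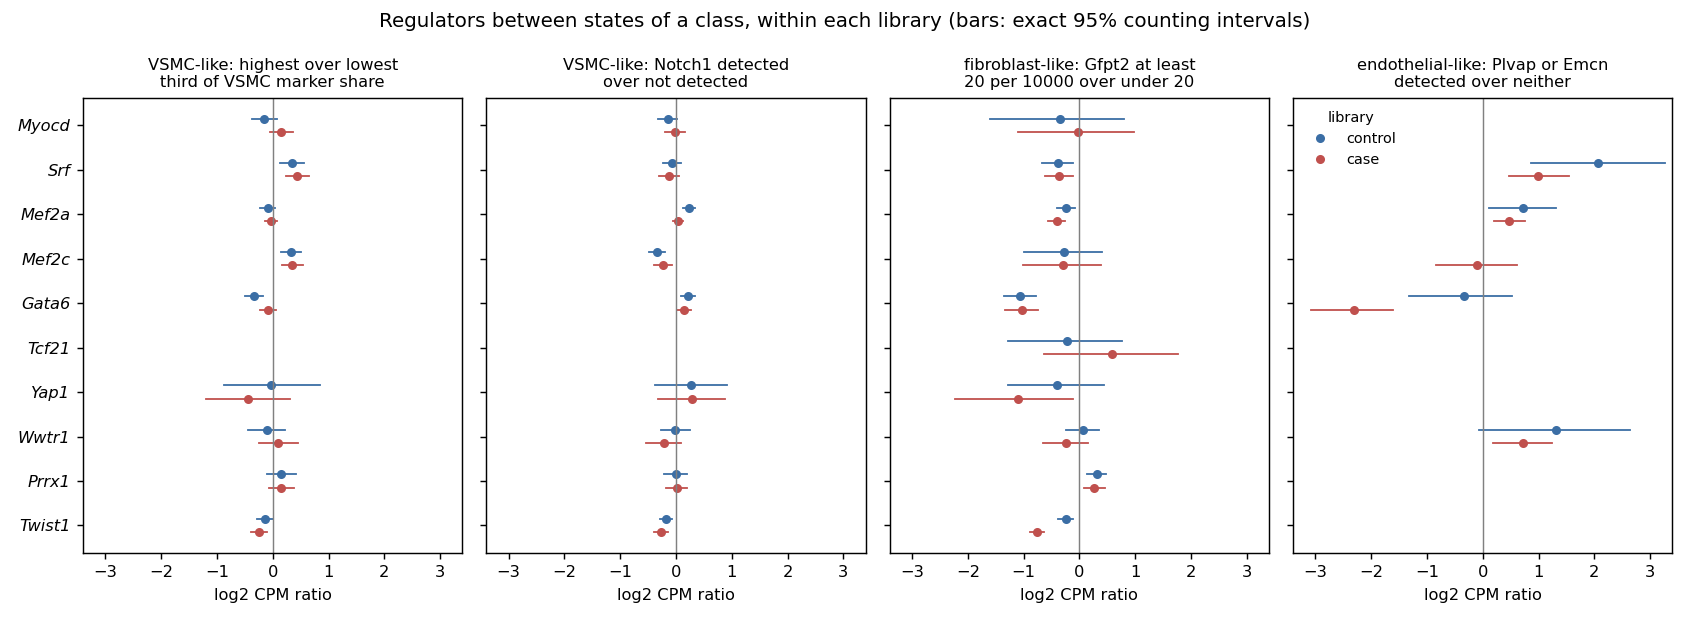
Log2 ratio of CPM of each regulator between 2 states of a class, within the control (blue) and the case (red) library, with exact 95% counting intervals. Points are drawn where both states together hold at least 20 UMIs and each holds more than 3. Srf and Mef2c lie above 0 for the VSMC-like cells richest in VSMC markers in both libraries, and Gata6 lies near -1 in Gfpt2-high fibroblasts of both.

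The partners and targets of the regulators were read from 8 lists of genes. Beside the counts that follow, 5.33% of all counted genes were called higher and 15.4% lower in VSMC-like cells, and 6.63% and 14.4% in fibroblast-like cells, and many of the shares called lie near or below these. In VSMC-like cells, 1 of 12 counted SRF cofactors and regulators was higher and 2 were lower. Elk1, a growth-signal cofactor of SRF, rose by 0.62 (0.41 to 0.83), from 21.7 to 33.4 CPM. Hopx, a homeodomain protein that restrains SRF, fell by 0.98 and Csrp2, a LIM protein of smooth muscle that bridges SRF and GATA factors, by 0.61. Of 18 contractile target genes outside the gate, 0 were higher and 3 lower, among them Des (desmin) at -0.65 (-0.79 to -0.51) and Mustn1 at -0.68 (-0.77 to -0.59). The median of the 18 was -0.17, near the -0.14 of all counted genes. Among fibroblast-like cells 0 of 11 SRF cofactors were higher and 1 lower, Hopx at -1.02 (-1.37 to -0.67), and 0 of 15 contractile targets were higher and 2 lower, Tpm2 at -0.62 (-0.73 to -0.50) and Ppp1r12b at -0.63 (-1.21 to -0.06).

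Of the Hippo kinases and TEAD partners, 0 of 17 were higher and 1 lower in VSMC-like cells, and 1 of 13 higher and 1 lower in fibroblast-like cells. The lower gene was Tead1, which encodes a DNA-binding partner of YAP and TAZ, in both classes, at -1.08 (-1.57 to -0.60) and -0.76 (-1.34 to -0.20). Amot, which tethers YAP at the membrane, was higher in fibroblast-like cells at 0.82 (0.27 to 1.38). YAP and TAZ target genes were 1 higher and 1 lower of 14 in VSMC-like cells: Nt5e (CD73) at 0.86 (0.69 to 1.04) and Ccn1, a matricellular protein, at -0.74 (-0.80 to -0.68). In fibroblast-like cells 0 of 12 were called in either direction. Over all counted genes, 5.33% and 15.4% were called higher and lower in VSMC-like cells and 6.63% and 14.4% in fibroblast-like cells.

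The MEF2 list held 1 gene higher and 0 lower of 6 in VSMC-like cells, Hdac4, a histone deacetylase that represses MEF2 factors, at 0.69 (0.43 to 0.95). In fibroblast-like cells 0 of 5 were higher and 1 lower, the kinase gene Mapk14 at -0.66 (-1.01 to -0.32). Of the GATA family and its cofactors 4 and 3 genes were counted in the 2 classes, and 0 were called. The bHLH partners and Id inhibitors had the lowest median in VSMC-like cells among the 8 lists, at -0.39, with 0 of 11 higher and 4 lower. Scx (scleraxis), a tendon bHLH factor, gave -1.16 (-1.45 to -0.88), and Id1, an inhibitor that pairs with bHLH partners, went from 529 to 306 CPM, a change of -0.79 (-0.84 to -0.73). In fibroblast-like cells 1 of 9 was higher, the bHLH partner Tcf4 at 0.83 (0.62 to 1.05), and 1 lower, Twist2 at -0.63 (-0.84 to -0.42). Of the mesenchymal homeobox and EMT factors, 0 of 17 were called in VSMC-like cells. In fibroblast-like cells 2 of 19 were higher, Runx2, the master factor of bone, at 1.20 (0.96 to 1.44) and the Notch target Hey2 at 0.61 (0.38 to 0.84), and 2 lower, Prrx2 at -0.70 (-0.91 to -0.49) and Foxs1 at -0.97 (-1.15 to -0.80). Both Prrx genes thus stood lower in case fibroblast-like cells, Prrx2 past the 1.5-fold limit and Prrx1 within it. In endothelial-like cells 3 of the 5 counted bHLH and Id genes were lower, Id1 at -1.30, Id2 at -1.27 and Id3 at -1.08, beside 20.9% of all 2138 counted genes called lower, and they are named here after their values were seen. In VSMC-like cells 15.4% of all counted genes were called lower and in fibroblast-like cells 14.4%, with 5.33% and 6.63% called higher.

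**Figure D4:**
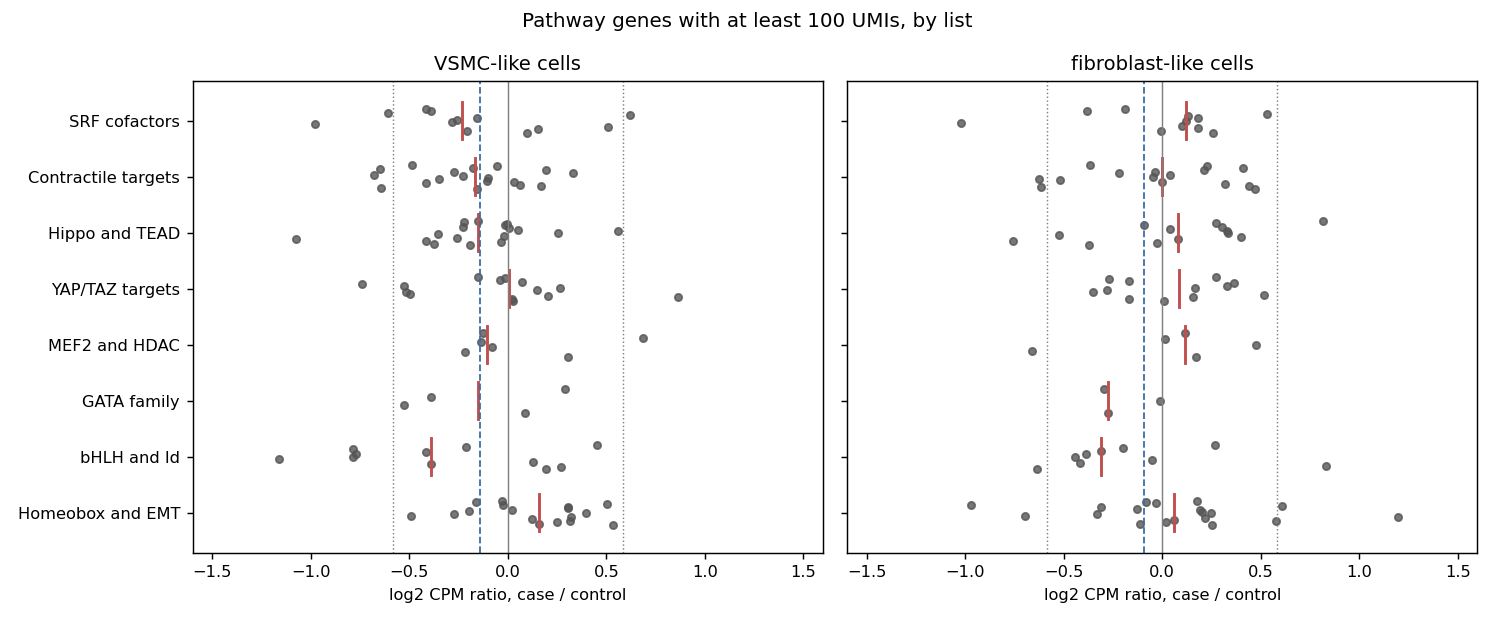
Log2 ratio of CPM, case over control, of every listed partner or target gene with at least 100 UMIs (grey points) in VSMC-like and fibroblast-like cells, with the median of each list (red), the median of all counted genes (blue dashes) and the 1.5-fold limits (grey dots). Most genes lie within the limits, and in VSMC-like cells the bHLH and Id list has the lowest median, -0.39.

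The genes whose levels were most like those of a regulator were found over 10 pools, the 5 classes in each library, by Pearson correlation of log2(CPM + 1) among 10331 genes. The 10 points share 2 libraries and differ greatly in depth, so these are descriptions. Myocd was most like P2rx1 (r = 0.958), Trdn (0.953) and Adra1d (0.951), which encode a purinergic receptor, triadin of the calcium store and an adrenergic receptor. Mef2c was most like Rock2 (0.978), Pfdn1 (0.969) and Ndufb6, and Srf like Pim3 (0.933), Man2c1 (0.932) and Lyrm2 (0.917). Mef2a was most like Rtbdn (0.959), Tcf4 (0.946) and Cx3cl1 (0.943). Gata6 was most like Mmut (0.997), Mtmr11 (0.996) and Zfp275 (0.994), and Yap1 like Traf3ip2 (0.988) and Dync2li1 (0.971). Wwtr1 was most like Hdgfl3 (0.984), Nckap1 (0.982) and Mid2 (0.972). Prrx1 was most like Fmod (0.969), Mmp23 (0.955) and Sept8 (0.943), and Twist1 like NEWGENE_1308171 (0.984), Ogn (0.969) and Adam33 (0.966), Fmod and Ogn encoding small proteoglycans of the matrix. Tcf21 was most like AABR07048420.1, Dlg2 and F2rl2, and it was above 0 in the fibroblast-like pools alone, which fixes such a pattern.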

How the data were processed

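UMI counts of both libraries had been deposited by the authors as 1 matrix, made with Cell Ranger 3.1.0 per the file header, on genome build Rnor_6.0 per the labels, which also name Seurat. Barcodes carry no group name, so each library was recognised by its stated number of barcodes. Counts were taken as deposited. Cells with over 20% mitochondrial UMIs were dropped, as were those more than 2 SD from their library's mean log10 UMIs or genes, or over 3 robust SD from the line relating genes to UMIs. A barcode entered a class when at least 3 UMIs, and at least 50 (VSMC, 5 markers), 30 (fibroblast, 6), 8 (endothelial, 7), 15 (macrophage, 7), 15 (Schwann, 6) or 5 (T cell, 5) of 10000 UMIs came from its markers. These limits were chosen with the data in view. Barcodes of 1 gate took its name, 4 T-cell-like cells were too few to describe, and 398 barcodes of no gate and 52 of several were left out. Doublets were left in: Scrublet called 6 control and 0 case cells (0.219% and 0%), so it had not worked. All 6 were cells with both VSMC and fibroblast markers.

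UMIs were summed per class and library and scaled to CPM. With 1 library per group there is no test. A gene was counted from 100 UMIs and called at 1.5-fold, and a count of 0 was read as up to 3. The 10 genes and 8 pathway lists were chosen with earlier results of these data known. Named were all 10 genes, at most 2 rises and 2 falls per list in VSMC-like and fibroblast-like cells, and the 3 genes most like each regulator, over 5 classes in place of the 6 planned (1 such gene is not reported here). On simulated VSMC-like counts (8946 genes) 100% of 100 genes changed 2-fold were recovered, and 95.2% of intervals held the true change. Recovery was 98% in fibroblast-like and endothelial-like counts, and 2.06% of unchanged endothelial-like genes passed 1.5-fold. These counts were drawn with Poisson error alone, for which the intervals are built, so coverage near 95% was fixed in advance. Spread between libraries and changes under 2-fold were not simulated.

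Of markers of other cells, those of small-vessel mural cells held 220 and 277 CPM in control and case VSMC-like cells, perineurial markers 52.6 and 54.6, skeletal muscle markers 67.9 and 36.8, adipocyte markers 0.299 and 0.407 and erythroid markers 10.2 and 16.5. The software was scanpy 1.11.5, pandas 2.3.3, scipy 1.17.1 and numpy 2.4.6 under Python 3.11.15, with edgeR 4.0.16 under R 4.3.3 for TMM scaling alone. A total of 11 alternatives was tried.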

Additional observations from a re-analysis of the deposited data

Results flagged for a closer look

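Changes between case and control that lay on opposite sides of 0 in 2 cell classes, with counting intervals that both excluded 0, were found for 3 regulators. The difference between the classes was not tested, since each rests on 1 library per group. Wwtr1 was lower in case VSMC-like cells (-0.36) and fibroblast-like cells (-0.66) and higher in endothelial-like cells (1.01), so that the log2 changes differed by -1.36 and -1.67. Mef2c was lower in VSMC-like cells (-0.31) and higher in endothelial-like cells (0.83), a difference of -1.14. The endothelial-like value came from 15 and 72 UMIs, under the minimum of 100, and its interval began at 0.0097. At 1000 UMIs per cell it was 0.052, with 3 control and 14 case cells holding a UMI. Twist1 was lower in VSMC-like cells (-0.34) and slightly higher in fibroblast-like cells (0.10), a difference of -0.44.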

How the results depend on the processing

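Counting error is the only error given, so depth limits Yap1, Tcf21 and the small classes most, and differences between rats or libraries cannot be told apart from the injury. No paired analysis was possible because each group is 1 library. Of 99 recomputed counts and medians 88 stayed within the tolerance (1.5-fold for a count, the median half-width of the intervals for a median), and of 990 recomputed levels and changes of single regulators 923 stayed within their intervals. Intervals of few UMIs are wide, as for the change of Prrx1 in endothelial-like cells (-3.24 to 3.03). Staying within them is thus a weak check in the small classes. Leaving out Scrublet doublets removed 0 cells of the named classes in either library. The values of that alternative were thus the same by construction, and they are among those that stayed. The median change in VSMC-like cells, -0.08, turned to 0.043 as a mean of per-cell CPM and to 0.061 under TMM scaling. In fibroblast-like cells 1 regulator was higher with Leiden clusters, 0 were lower at 1000 UMIs per cell and as a mean of per-cell CPM, and 2 were lower with no minimum of UMIs. In endothelial-like cells 1 was higher at 1000 UMIs per cell, namely Mef2a at 0.92, the 1 regulator still counted there. As a mean of per-cell CPM 1 was higher, and Srf was no longer called. With Leiden clusters 6 were counted, 3 higher and 1 lower. With no minimum of UMIs 3 were higher and 2 lower, and the median was 0.045. TMM scaling, which shifts every change in these cells by 0.28, gave 3 higher of 4 and a median of 0.91. The median of all counted genes was 0.28 under that scaling. The change of Srf in endothelial-like cells turned to -0.39 at 1000 UMIs per cell, where fewer UMIs remain by construction. The cause of this and of the other moves was not tested.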
